A study of Mus musculus with 13 samples.

Results

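DNA methylation was measured in mouse cells by reduced representation bisulfite sequencing (RRBS), in which a restriction enzyme selects CpG-rich fragments and bisulfite tells methylated from unmethylated cytosines. The libraries compared were 2 of female induced pluripotent stem cells (iPSC) marked XaXa, the notation for cells with both X chromosomes active, and numbered 7 and 8. A further 4 were of female iPSC marked XO, the notation for a single X chromosome (numbers 3, 5, 6 and 9), and 3 were of male iPSC (numbers 1, 2 and 4). The remaining 4 were 1 library each of male cells positive and negative for SSEA1, a surface antigen gained during reprogramming, and 2 of male mouse embryonic fibroblasts (MEF, numbers 4 and 5). The labels give no strain, passage or reprogramming method, and they do not say which iPSC libraries share a line or a culture. All iPSC were freed of feeder cells before DNA was isolated, per the labels' protocols. The regions described are autosomal 1 kb tiles with intermediate pooled methylation in every group labelled male and low pooled methylation in XaXa iPSC. Pooled XaXa reads are mostly those of XaXa 8, and XaXa 7 was above 15% in most of these tiles. Tiles were chosen by their XaXa, male iPSC, SSEA1 and MEF levels. A tile was chosen when it held 10 or more CpG positions in the 13 libraries together and 20 or more reads pooled in each group, had a pooled level of 30 to 70% in MEF, in the SSEA1 libraries together and in male iPSC, and had 15% or less in XaXa. A level is the percent of reads over CpGs that were methylated. Of 59727 autosomal tiles with enough CpGs and reads, 2204 were at 30 to 70% in MEF, SSEA1 cells and male iPSC, and 314 of these (14.2%) were at 15% or less in XaXa. Those 4 groups' levels are therefore given as descriptions, while the XO levels were not used by it.

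Intermediate methylation of a CpG island is the mark of genomic imprinting, in which the copy from one parent is methylated in the germ line and the other is not. At most imprinted control regions the maternal copy carries the methylation and the unmethylated paternal copy is expressed. At a few, among them the Dlk1-Meg3 domain, it is the paternal copy that is methylated. KRAB zinc finger proteins, ZFP57 among them, bind the methylated copy and protect it from the demethylation that follows fertilisation and that accompanies naive pluripotency. Intermediate levels can also come from mixtures of cells or from CpGs that are each methylated in part of the molecules, and the data do not separate the parental copies.

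The 250 bases before the transcription start of 4 genes are shown. They were picked by hand from the genes whose starts chosen tiles cover or adjoin. They are Mcts2, a retrogene inside an intron of H13; Zrsr1, a splicing factor retrogene inside an intron of Commd1; Meg3, a maternally expressed long noncoding RNA; and Gm24463, a long noncoding RNA outside every imprinted window used here. The sequences are those of RefSeq for GRCm38.p6, and their mm9 positions were found by matching the spacing and neighbouring bases of their CpGs to the deposited CpG positions. They lie on the plus strand at chr2:152512634-152512883 (Mcts2), chr11:22871755-22872004 (Zrsr1), chr12:110778956-110779205 (Meg3) and chr9:88961417-88961666 (Gm24463, the first of its 3 placed starts). Capitals mark CpGs that the deposited tables list, which were 20 of 20 at Mcts2, 7 of 8 at Zrsr1, 8 of 10 at Meg3 and 20 of 20 at Gm24463.
Mcts2: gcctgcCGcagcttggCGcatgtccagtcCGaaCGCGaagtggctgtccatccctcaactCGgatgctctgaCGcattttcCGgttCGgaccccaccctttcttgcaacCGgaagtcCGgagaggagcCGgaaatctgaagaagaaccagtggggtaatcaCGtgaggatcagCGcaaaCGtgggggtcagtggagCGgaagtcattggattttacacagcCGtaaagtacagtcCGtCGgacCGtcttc
Zrsr1: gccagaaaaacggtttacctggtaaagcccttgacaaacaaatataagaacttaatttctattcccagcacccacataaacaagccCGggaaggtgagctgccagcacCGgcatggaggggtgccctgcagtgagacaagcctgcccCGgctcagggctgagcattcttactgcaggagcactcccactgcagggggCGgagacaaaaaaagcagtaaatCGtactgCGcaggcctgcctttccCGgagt
Meg3: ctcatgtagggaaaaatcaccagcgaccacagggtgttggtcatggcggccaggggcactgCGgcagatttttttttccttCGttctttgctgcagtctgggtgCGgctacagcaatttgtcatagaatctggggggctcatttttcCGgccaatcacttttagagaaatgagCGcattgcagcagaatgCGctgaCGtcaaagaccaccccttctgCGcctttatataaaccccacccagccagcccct
Gm24463: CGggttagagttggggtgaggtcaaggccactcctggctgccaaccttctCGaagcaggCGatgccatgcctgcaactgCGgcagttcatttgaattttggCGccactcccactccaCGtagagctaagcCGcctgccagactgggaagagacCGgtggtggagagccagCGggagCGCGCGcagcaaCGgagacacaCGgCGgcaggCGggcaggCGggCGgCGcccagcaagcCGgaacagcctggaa
Over the 20 CpGs shown for Mcts2, the level was 2.67% in XaXa 7 and 1.74% in XaXa 8, and 1.83%, 4.09% and 0.620% in XO 3, 5 and 6. XO 9 had 0 of 25 reads methylated there, which allows a level of up to 12%. The male iPSC libraries 1, 2 and 4 had 50.7%, 28.8% and 53.7%, so every XO and XaXa library was below every male one. Over the Gm24463 stretch, XaXa 7 and 8 had 0 of 37 and 0 of 323 reads methylated (up to 8.11% and 0.929% is allowed), and XO 3 and 5 had 0 of 39 and 0 of 50 (up to 7.69% and 6%). XO 6 and 9 had 58.0% and 62.5% (497 and 16 reads) at Gm24463, and male iPSC 1, 2 and 4 had 45.1%, 70.6% and 31.3%. The XO libraries thus stood on both sides of a gap at Gm24463 and on 1 side at Mcts2. Over the Zrsr1 stretch, XO 3 had 0 of 62 reads methylated (up to 4.84% is allowed). XO 5, 6 and 9 had 12.3%, 41.7% and 31.25% there (65, 381 and 16 reads). Male iPSC 1, 2 and 4 had 52.4%, 27.3% and 55% at Zrsr1 (63, 22 and 240 reads), so XO 6 and 9 lay within the male range. At Meg3, XO 3, 5, 6 and 9 had 30.4%, 10.3%, 71.2% and 33.3% (46, 58, 111 and 9 reads). Male iPSC 1, 2 and 4 had 60.5%, 94.1% and 7.04% there (38, 17 and 142 reads). The XO 9 level at Meg3 is under the minimum of 10 reads used for tiles. The hexamer TGCCGC, which ZFP57 binds when methylated, was searched on both strands, overlaps allowed. It occurred once in the Mcts2 stretch, once at Meg3, 2 times at Gm24463 and 0 times at Zrsr1, and 8.74% of 32544 distinct stretches of that length in the RefSeq table hold it. As the 4 stretches were picked by hand, these counts do not describe the chosen tiles as a set.

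Depth and sex chromosomes set libraries apart. Totals over all CpGs ran from 4784488 reads in XO 9 to 143148634 in XaXa 8, and XaXa 7 had 20259444, so that pooled XaXa levels are mostly those of XaXa 8. Relative to male iPSC, X reads over autosomal reads were 1.45 and 1.38 in XaXa 7 and 8. In the XO libraries 3, 5, 6 and 9 they were 1.34, 1.21, 1.02 and 1.38, so that only XO 6 was near the male value and XO 3 and 9 were near XaXa. The values of XO 3, 5 and 9 go against a single X. These libraries are called XO after their label throughout, and every XO mean given here includes them. MEF 5, labelled male, had an X value of 1.28 and the lowest share of Y reads of all 13 libraries (0.0219% of autosomal reads, against 0.0913% in MEF 4), which goes against its label. With 25835728 reads in MEF 5 and 11337174 in MEF 4, pooled MEF levels are mostly those of MEF 5. Male iPSC 1, 2 and 4 had 19605073, 8042155 and 60276866 reads, so that pooled male iPSC levels are mostly those of male iPSC 4. The groups called male here include MEF 5 after its label. Over chromosome 11, XO 6 had 1.22 times the relative depth of male iPSC. At the promoter of Pou5f1, a pluripotency gene that is unmethylated in iPSC, XO 3 had 60% methylated reads (30 reads) and XO 5 17.3% (81 reads). XaXa 8 had 0.775% (258 reads) and XO 6 had 0 of 168 reads methylated. XaXa 7 and XO 9 had 0 of 17 and 0 of 13 reads methylated, too few to set them apart from XO 5. Male iPSC 1, 2 and 4 had 0 of 16 reads, 10% (30 reads) and 0 of 59 reads. SSEA1 positive cells had 66.7% (21 reads) there, and MEF 4 and 5 had 66.7% and 52.4% (6 and 21 reads). The part of X dosage, depth and Pou5f1 promoter methylation in the results that follow was not tested.

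Few of the chosen tiles lay at known imprinted loci. Of the 314, 9 overlapped one of 27 windows placed around known imprinted control regions and promoters, and 305 did not, so the name imprint-like holds for the levels and, by position, for few of the tiles. Among tiles at 30 to 70% in the male groups, 9 of 17 in windows (52.9%) were chosen, against 305 of 2187 outside (13.9%). The 17 lay in 10 windows, so they are not separate loci. Both shares are made of the levels that the rule used, and the windows were placed with earlier results of these data known. They are therefore a description and no test. The 9 covered Mcts2, Nnat (2 adjacent tiles), Peg10, Inpp5f, Zrsr1 (2 adjacent tiles), the Meg3 promoter and Airn-Igf2r. The pooled XaXa level ran from 2.05 to 13.1% in these 9 tiles, and from 0.685 to 14.99% in the other 305. Just inside the limit of 15% lay tiles on chromosome 13 at 59802001 and 55071001 (14.91% and 14.99%) and on chromosome 5 at 90971001 (14.98%). Just outside lay a tile of the Gnas locus on chromosome 2 at 174124001 (15.03%) and tiles on chromosome 16 at 20619001 (15.03%) and chromosome 9 at 92914001 (15.09%).

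The XaXa libraries differed from each other over the chosen tiles and over all covered tiles. XaXa 7 was at 15% or less in 125 of the 305 chosen tiles with 10 or more reads, and XaXa 8 in 309 of 314, a count close to fixed by the rule since pooled XaXa reads are mostly those of XaXa 8. Over all covered tiles, 40.6% were at 15% or less in XaXa 7 and 45.0% in XaXa 8, with mean levels of 28.0% and 22.1%. In the 1890 tiles at 30 to 70% in the male groups that stayed above 15% in XaXa, the means were 35.8% in XaXa 7 and 27.2% in XaXa 8, so that XaXa 7 was higher there as well. In the 9 window tiles XaXa 7 was at 15% or less in 8 and XaXa 8 in 9. The mean level over the 305 tiles outside windows was 16.9% in XaXa 7 and 10.1% in XaXa 8, and over the 9 window tiles it was 10.8% and 8.79%. Asking for 15% or less in each XaXa library left 120 tiles, 8 of them in windows. Leaving out MEF 5 left 208, of which 191 were among the 314 and 5 were in windows.

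**Figure D1:**
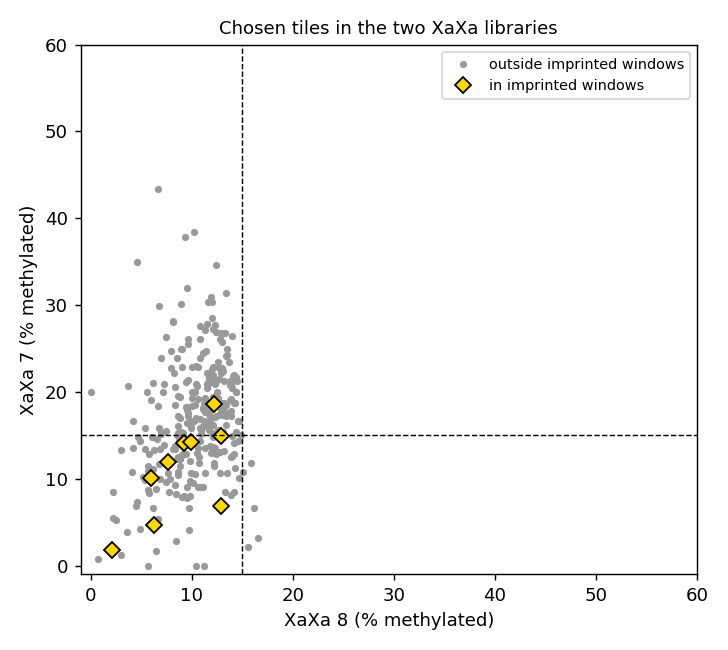
Methylated reads (%) of each chosen tile in XaXa 8 (horizontal axis) and XaXa 7 (vertical axis), with dashed lines at 15%; gold diamonds are the 9 tiles in imprinted windows. Most grey points lie left of the vertical line and above the horizontal one, as XaXa 7 was at 15% or less in 125 of 305 tiles and XaXa 8 in 309 of 314.

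At Mcts2, whose promoter is methylated on the maternal copy, the tile (chromosome 2, 152512001 to 152513000, 46 CpG positions) was nearly unmethylated in every female iPSC library. XaXa 7 and 8 had 1.76% (95% Wilson interval 0.602 to 5.06%, 170 reads) and 2.07% (1.59 to 2.68%, 2658 reads). XO 3, 5 and 6 had 2.23%, 10.3% and 0.402% (179, 349 and 1244 reads), and XO 9 had 0 of 26 reads methylated, which allows a level of up to 11.5%. Male iPSC 1, 2 and 4 had 47.8%, 44.0% and 58.4%, SSEA1 positive and negative cells 56.4% and 73.4%, and MEF 4 and 5 53.1% and 71.9%. No XO library overlapped a male iPSC library, with means of 3.24 ± 4.82% in XO (SD, n = 4) and 50.1 ± 7.49% in male iPSC (SD, n = 3). Over the 9 window tiles, the widest Wilson interval of a level was 5.52 points in XaXa 8 and 8.72 in XO 6, but 32.0 in XO 3 and 32.9 in XO 9, whose fewest reads were 19 and 17. Mcts2 was the only chosen window tile that was also at 15% or less in XO 6.

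Nnat encodes neuronatin, a small membrane protein, and lies inside an intron of Blcap; its maternal copy is methylated and its paternal copy expressed. The first Nnat tile (chromosome 2, 157386001 to 157387000, 32 CpG positions) had 4.68% in XaXa 7 and 6.22% in XaXa 8, and 2.76%, 5.65% and 49.2% in XO 3, 5 and 6. XO 9 had 0 of 24 reads methylated (a level of up to 12.5% is allowed), and male iPSC 1, 2 and 4 had 53.3%, 14.95% and 37.2%. XO 3, 5 and 9 were thus at the XaXa level, while XO 6 lay within the male range. In the second Nnat tile (157387001 to 157388000, 26 CpG positions), XaXa 7 and 8 had 11.9% and 7.68%, XO 3, 5, 6 and 9 had 14.04%, 8.59%, 59.0% and 3.85%, and male iPSC 1, 2 and 4 had 80.0%, 56.7% and 32.2%. SSEA1 positive and negative cells had 63.0% and 63.9% in the first tile and 91.3% and 41.3% in the second, and MEF 4 and 5 had 61.1% and 72.6% in the first and 53.5% and 49.4% in the second. The split of XO 6 from the other XO libraries was the same in both Nnat tiles.

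Zrsr1 is maternally methylated and paternally expressed. Its first tile (chromosome 11, 22872001 to 22873000, 62 CpG positions, at least 78 reads in each library) had 14.1% in XaXa 7 and 9.26% in XaXa 8, and 1.56%, 2.82%, 41.0% and 16.7% in XO 3, 5, 6 and 9. Male iPSC 1, 2 and 4 had 58.5%, 62.4% and 46.0%, so that all XO libraries were lower, XO 6 by the least. In the second tile (22873001 to 22874000, 16 CpG positions) XaXa 7 and 8 had 14.2% and 9.96%, XO 3, 5, 6 and 9 had 11.05%, 12.8%, 37.2% and 25.4%, and male iPSC 1, 2 and 4 had 42.7%, 57.8% and 33.9%. There XO 6 overlapped the male range. SSEA1 positive and negative cells had 33.8% and 46.5% in the first tile and 71.1% and 44.6% in the second, and MEF 4 and 5 had 79.4% and 47.2% in the first and 34.3% and 55.7% in the second. XO 6 had 1.22 times the relative depth of male iPSC over chromosome 11, which holds Zrsr1, and the part of this in its level was not tested.

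Airn is a paternally expressed noncoding RNA that silences Igf2r, the insulin-like growth factor 2 receptor, in cis, and its promoter lies in an Igf2r intron and is methylated on the maternal copy. The Airn tile (chromosome 17, 12934001 to 12935000, 20 CpG positions) had 14.95% in XaXa 7 and 12.9% in XaXa 8, 4.55%, 9.38%, 38.6% and 25% in XO 3, 5, 6 and 9, and 50.5%, 57.4% and 31.8% in male iPSC 1, 2 and 4. SSEA1 positive and negative cells had 42.9% and 27.9%, and MEF 4 and 5 had 100% (42 reads) and 53.0% (117 reads). XO 3, 5 and 9 were below every male iPSC library and XO 6 was not. At Inpp5f, where an imprinted transcript starts inside the gene of an inositol phosphatase, the tile (chromosome 7, 135831001 to 135832000, 36 CpG positions) had 6.90% and 12.9% in XaXa 7 and 8. XO 3, 5 and 6 had 15.8%, 1.89% and 38.0% there, XO 9 had 0 of 17 reads methylated (up to 17.6% is allowed), and male iPSC 1, 2 and 4 had 81.0%, 49.1% and 66.98%. SSEA1 positive and negative cells had 10.3% and 63.5% at Inpp5f, and MEF 4 and 5 had 66.7% and 42.9%. All XO libraries lay below all male iPSC libraries at Inpp5f.

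At Peg10 and Meg3, unlike the other chosen window tiles, XO 3 was at 30% or more. Peg10 is derived from a retrotransposon and is needed in the placenta. Its tile (chromosome 6, 4697001 to 4698000, 18 CpG positions) had 10.1% and 5.93% in XaXa 7 and 8. XO 3, 5 and 6 had 60.9%, 33.0% and 46.9% at Peg10, XO 9 had 0 of 24 reads methylated (up to 12.5% is allowed), and male iPSC 1, 2 and 4 had 76.7%, 73.5% and 35.5%. SSEA1 positive cells had 52.2%, SSEA1 negative cells 0 of 29 reads (up to 10.3% is allowed), MEF 4 0 of 14 reads (up to 21.4%) and MEF 5 49.0%, so that the pooled MEF and SSEA1 levels at Peg10 averaged libraries that were far apart. The Meg3 tile (chromosome 12, 110779001 to 110780000, 24 CpG positions) covers the start of a gene whose promoter is methylated on the paternal copy. It had 18.6% and 12.2% in XaXa 7 and 8, 36.7%, 18.6%, 74.3% and 61.8% in XO 3, 5, 6 and 9, and 60.6%, 84.4% and 20.9% in male iPSC 1, 2 and 4. SSEA1 positive and negative cells had 37.0% and 27.4% at Meg3, and MEF 4 and 5 had 26.3% and 43.2%. At Peg10, XO 3 and 6 lay within the male iPSC range and XO 5 and 9 below it, and at Meg3, XO 3, 6 and 9 lay within it and XO 5 below it.

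**Figure D2:**
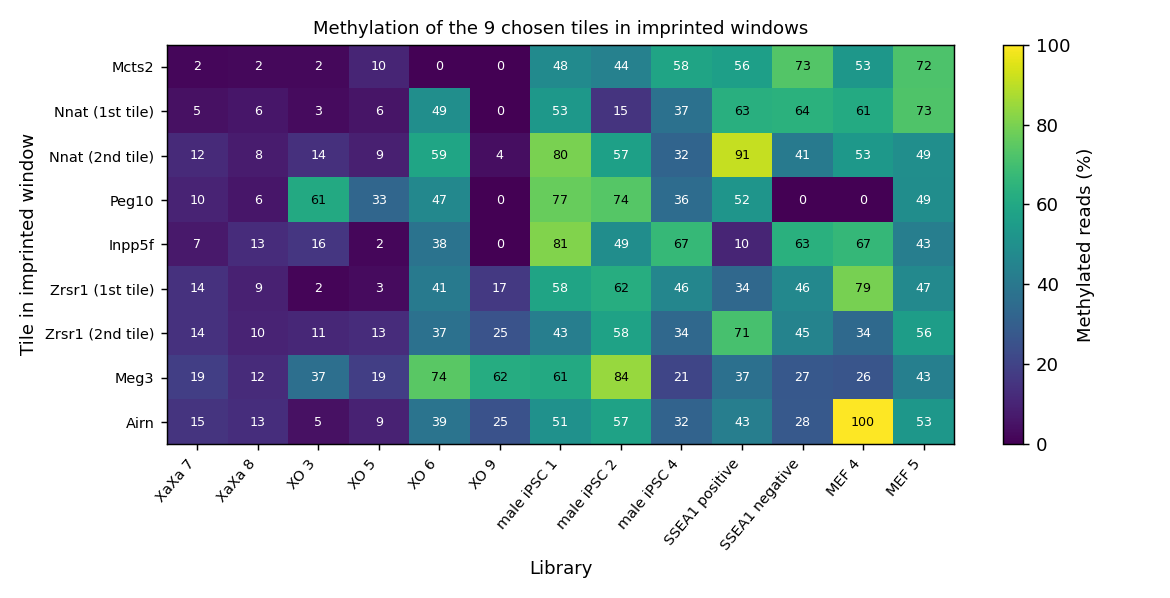
Methylated reads (%) in the 9 chosen tiles that overlap imprinted windows (rows) in each of the 13 libraries (columns), printed in each cell and coloured from 0 to 100%. The XaXa columns are at 18.6% or less in all rows, XO 3 and 5 at 15.8% or less in all rows but Peg10 and Meg3, and XO 6 at 37.2% or more in all rows but Mcts2.

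Over the 9 window tiles, the mean level was 16.6%, 11.5%, 42.7% and 14.7% in XO 3, 5, 6 and 9, and 61.2%, 55.6% and 40.3% in male iPSC 1, 2 and 4. These libraries averaged 21.4 ± 14.4% in XO (SD, n = 4) and 52.4 ± 10.8% in male iPSC (SD, n = 3), a difference of -31 points. XO 6 was above male iPSC 4, and the other XO libraries were below all male ones. Over the 305 tiles outside windows the XO libraries 3, 5, 6 and 9 had means of 39.0%, 34.3%, 36.9% and 26.3%, and male iPSC 1, 2 and 4 had 34.5%, 39.2% and 41.9%. There the means were 34.1 ± 5.58% in XO (SD, n = 4) and 38.5 ± 3.73% in male iPSC (SD, n = 3), and the groups overlapped. Over all 314 tiles the difference was -5.22 points, within the SD of the XO libraries (5.61). With XO 6 as the only XO library, a choice made after seeing the data, it was -1.91 points.

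**Figure D3:**
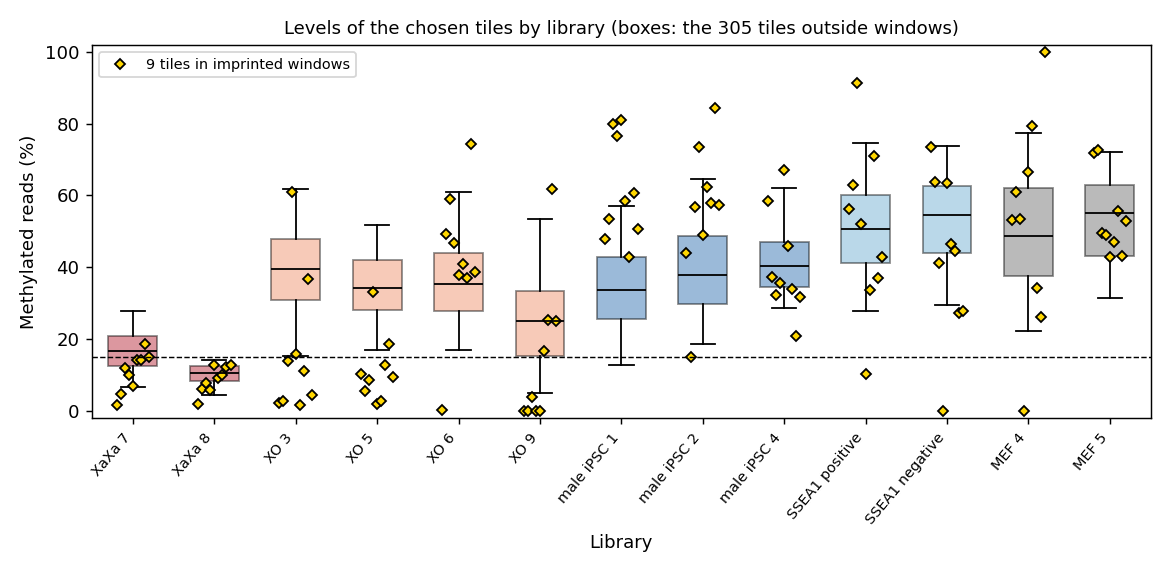
Methylated reads (%) of the chosen tiles in each library. Boxes give the median and quartiles of the 305 tiles outside imprinted windows, whiskers their 5th and 95th percentiles, diamonds the 9 tiles in windows and the dashed line 15%. In XO 3 and 5 most diamonds lie under the boxes, whereas in XO 6 the diamonds lie on or above the box except Mcts2.

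In XO 3 and XO 5, most window tiles and few of the other chosen tiles were at XaXa levels. With 10 or more reads in XO 3, 5 and 6, the level was 15% or less in both XO 3 and XO 5 in 6 of 9 window tiles, in 6 of 297 tiles outside windows (2.02%), and in 3 of 1829 tiles that stayed above 15% in XaXa (0.164%). Over all covered tiles it was 19647 of 58183 (33.8%), of which 19377 were at 15% or less in XO 6 too. Of the 6 window tiles, 5 were at 30% or more in XO 6 and 1, Mcts2, was at 15% or less. A level of 30 to 70% in XO 3, 5 and 6 alike was found in 1 of 9 window tiles (Peg10), in 129 of 297 tiles outside windows (43.4%) in 1032 of 1829 tiles that stayed (56.4%) and in 11.8% of all covered tiles. Pooled over the XO libraries, in which XO 6 has most reads, 229 of the 314 chosen tiles (72.9%) and 1593 of the 1890 tiles that stayed (84.3%) were at 30 to 70%. Only 4 of the 314 were at 15% or less in pooled XO.

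All 3 of the tiles that stayed above 15% in XaXa and were low in XO 3 and 5 lay in the Nespas-Gnasxl part of the Gnas locus, an imprinted region that encodes variants of a G protein subunit. The tile at 174122001 on chromosome 2 had 5.26%, 5.68%, 33.7% and 44.4% in XO 3, 5, 6 and 9, and 40.7%, 52.2% and 36.8% in male iPSC 1, 2 and 4. The tile at 174125001 had 11.4%, 9.71%, 48.1% and 41.0% in XO 3, 5, 6 and 9, and 50.9%, 40.4% and 50.8% in male iPSC 1, 2 and 4. In the tile at 174124001, just above the limit in XaXa, XO 3, 5, 6 and 9 had 3.33%, 6.90%, 45.8% and 58.3% (30, 116, 371 and 12 reads). The fourth Gnas tile at 30 to 70%, at 174123001, had 21.6% in pooled XaXa and 32.4%, 17.7%, 58.5% and 68.4% in XO 3, 5, 6 and 9. XO 3 and 5 were below the male iPSC libraries in all 4 Gnas tiles, and XO 6 and 9 were near them. The remaining window tiles that stayed were at Igf2 (33.5% in pooled XaXa, 62.7% in pooled XO and 65.3% in pooled male iPSC), at Peg13 (23.7%, 55.3% and 67.04%) and in 2 further tiles beside Meg3 (26.5% and 28.5% in pooled XaXa).

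Among all 58183 covered tiles with 10 or more reads in XO 3, 5 and 6, 53 were at 15% or less in XO 3 and 5 and at 30% or more in XO 6. Of these, 17 lay in 9 imprinted windows, which is 25.4% of 67 window tiles, and 36 lay elsewhere, which is 0.0619% of 58116 tiles. The 17 were 5 chosen tiles, the 3 Gnas tiles, and 9 tiles that were not at 30 to 70% in every male group. Among the last were the tiles of Snrpn, the imprinted splicing factor gene of the Prader-Willi domain, and of Peg3, a zinc finger gene. The Snrpn tile (chromosome 7, 67149001) had 0.667%, 4.50%, 36.4% and 19.2% in XO 3, 5, 6 and 9, and pooled levels of 9.26% in XaXa, 27.5% in male iPSC, 48.2% in SSEA1 cells and 43.0% in MEF. The Peg3 tile (chromosome 7, 6682001) had 0 of 14 reads methylated in XO 3 (up to 21.4% is allowed), 4.35% and 41% in XO 5 and 6, and pooled levels of 13.4% in XaXa, 53.8% in male iPSC, 56.4% in SSEA1 cells and 21.4% in MEF. Both were low in XaXa and in XO 3 and 5, and failed only on the pooled level of 1 male group. At Snrpn that group was male iPSC, with 56.1%, 50% and 12.9% in libraries 1, 2 and 4, and the pool is mostly library 4. At Peg3 it was MEF, with 38.5% and 13.8% in MEF 4 and 5. This split between the XO libraries was looked for after their levels were seen. X reads relative to male iPSC were 1.34 in XO 3, 1.21 in XO 5 and 1.02 in XO 6, and the part of X dosage in the split was not tested.

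**Figure D4:**
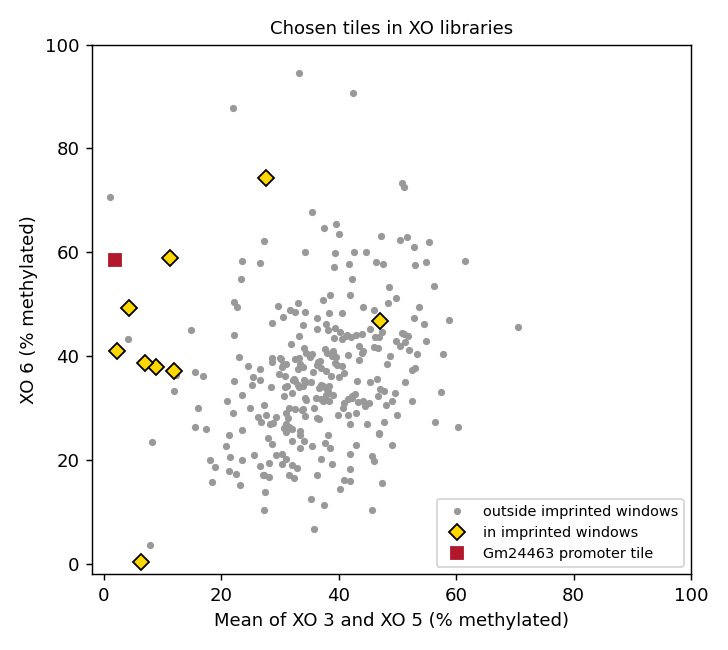
Methylated reads (%) of each chosen tile in XO 6 (vertical axis) against the mean of XO 3 and XO 5 (horizontal axis), with window tiles as diamonds and the Gm24463 promoter tile as a square. Of the 9 diamonds, 6 stand at the upper left, at 15% or less in the mean of XO 3 and 5 and at 37.2 to 59.0% in XO 6, away from most grey points, and the square stands with them.

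Most other windows held no tile at 30 to 70% in all male groups. Of the 27 windows, 25 had a covered tile, 10 had one at 30 to 70% in all male groups and 7 had a chosen one. Of the 68 covered window tiles, 51 were not at 30 to 70%, and 15 of these were under 30% in MEF, SSEA1 cells and male iPSC alike. At Grb10, which encodes a growth-inhibiting adaptor protein, the tile at 11925001 on chromosome 11 had 6.38% in pooled XaXa, 47.3% in pooled XO, 57.5% in male iPSC and 57.1% in MEF, but 9.09% in SSEA1 cells. At Plagl1, a zinc finger gene that restrains growth, the tile at 12810001 on chromosome 10 had 10.6% in XaXa, 44.2% in XO and 58.9% in male iPSC, but 27.2% in MEF and 0.704% in SSEA1 cells. At Nap1l5, a retrogene inside an intron of Herc3, the tile at 58856001 on chromosome 6 had 4.50% in XaXa, 51.8% in XO and 57.3% in male iPSC, but 86.7% in MEF. These tiles were low in XaXa as the chosen ones were, and their SSEA1 and MEF levels rest on 81 to 233 reads. Elsewhere in the Gnas locus the male iPSC were low as well: the chromosome 2 tile at 174110001 had 2.50% in XaXa, 3.37% in XO and 2.11% in male iPSC, against 40.0% in SSEA1 cells and 37.0% in MEF.

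XO and male iPSC were compared tile by tile with limma. The rule did not use XO levels, but it used those of male iPSC, and those of XaXa and MEF, which are in the fit. With calls set at 10 points or more and an adjusted p under 0.05, limma found 0 of 303 chosen tiles lower and 0 higher in XO, beside 0 of 58008 tiles in each direction (0%). At an unadjusted p under 0.05, limma had 28 of 303 chosen tiles lower (9.24%), against a background of 1.63%, and 2 higher (0.66%), against a background of 4.43%. Among the tiles that stayed above 15% in XaXa, the shares were 0.984% lower and 6.99% higher. A quasi-binomial model weighted by reads called 17 tiles lower and 120 higher, 1 chosen tile among those lower. Every XO library was below every male iPSC library in 27 of 303 chosen tiles (8.91%), against 2.56% of all tiles and 1.09% of the tiles that stayed above 15% in XaXa. Every XO library was above every male iPSC library in 4 chosen tiles (1.32%), against 5.35% of all tiles and 8.47% of the tiles that stayed. Of those 27, 3 were window tiles (Mcts2, Inpp5f and the first Zrsr1 tile) and 24 were not. The median difference, XO minus male iPSC, was -4.76 points over the chosen tiles and 0.356 points over all tiles tested. The male iPSC level, which the rule restricts, enters each of these differences.

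Of the 4 chosen tiles with the smallest p-values, 3 were window tiles. The Mcts2 difference, XO minus male iPSC, was -46.85 points, with an adjusted p of 0.0518 in limma, and all 4 XO libraries were lower than all 3 male iPSC libraries. Inpp5f, where the same held, had a difference of -51.75 points and an adjusted p of 0.139 in limma, and the first Zrsr1 tile -40.1 points and 0.333. The second Nnat tile (-34.9 points, adjusted p = 0.568 in limma), the Airn tile (-27.2 points, 0.742) and the first Nnat tile (-20.8 points, 0.644) were further from the threshold. Each of these last 3 had XO 6 within the male range. Leaving out XO 6 brought Inpp5f to an adjusted p of 0.00598 and the first Zrsr1 tile to 0.0155 in limma. It gave 3 of 303 chosen tiles called lower and 0 higher, beside 12 lower and 3 higher of all 58008 tiles. Over all the alternative settings tried, the adjusted p lay between 0.000237 and 0.325 for Mcts2, between 0.00598 and 1.0 for Inpp5f and between 0.0155 and 1.0 for the first Zrsr1 tile. With XO 6 as the only XO library, limma called 3 tiles lower, and Mcts2 was the 1 chosen tile among them. Leaving out male iPSC 4 gave 2 chosen tiles called lower and 0 higher, beside 8 lower and 17 higher of all tiles. Without XO 5, 1 chosen tile was called lower and 0 higher, beside 1 lower and 0 higher of all tiles. Without MEF 4 or MEF 5, 1 chosen tile was called lower and 0 higher, beside 4 lower and 3 higher of all tiles. Of the chosen tiles outside windows, that on chromosome 3 at 98232001 came nearest, with a difference of -39.2 points and an adjusted p of 0.263 in limma. It had 10.8%, 4.88% and 3.58% in XO 3, 5 and 6 and 0 of 52 reads in XO 9 (up to 5.77% is allowed), but the male iPSC libraries 1, 2 and 4 were spread over 54.5%, 66.4% and 11.3%.

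Outside windows, 6 tiles were at 15% or less in both XO 3 and XO 5, as 6 of the 9 window tiles were. They were singled out after their values were seen. Gm24463, which the RefSeq table lists as a long noncoding RNA, has its promoter in one of them (88961001 to 88962000, 43 CpG positions, at least 75 reads in each library). That tile had 0.746% in XaXa 7 and 0.679% in XaXa 8, and 2.33%, 1.32%, 58.6% and 46.7% in XO 3, 5, 6 and 9. Male iPSC 1, 2 and 4 had 56.1%, 66.2% and 28.4% there, SSEA1 positive and negative cells 37.8% and 42.3%, and MEF 4 and 5 53.5% and 23.5%. XO 6 and 9 thus lay within the male range and XO 3 and 5 at the XaXa level, the split also seen in the Gnas tiles. Another, on chromosome 5 at 144015001 (142 CpG positions), had 0 of 54 reads methylated in XO 3 (up to 5.56% is allowed), 2.12%, 70.6% and 22.2% in XO 5, 6 and 9, and 73.2%, 82.3% and 3.51% in male iPSC 1, 2 and 4. The tile on chromosome 8 at 86533001 had 5.41%, 2.63%, 43.3% and 55.6% in XO 3, 5, 6 and 9 and 42.2%, 36.1% and 33.3% in male iPSC 1, 2 and 4. The remaining ones were on chromosome 9 at 47970001 (14.5%, 9.47% and 33.3% in XO 3, 5 and 6), on chromosome 2 at 168833001 (8.77%, 7.63% and 23.4%) and the chromosome 3 tile above.

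Of the chosen tiles outside windows, 15 of 298, 12 of 302 and 9 of 305 were at 15% or less in XO 3, 5 and 6, and 63 of 255 in XO 9, which has the fewest reads. Over all covered tiles the shares at 15% or less were 34.9%, 36.0% and 37.2% in XO 3, 5 and 6, and 41.6% in XO 9. The 10 with the most reads in their least covered library included Gm24463 and 9 without a split of that size. At Dazl, which encodes an RNA-binding protein of germ cells, the promoter tile (chromosome 17, 50432001 to 50433000, 84 CpG positions) had 13.4% and 8.15% in XaXa 7 and 8. XO 3, 5, 6 and 9 had 41.3%, 30.1%, 30.05% and 8.33% at Dazl. Male iPSC 1, 2 and 4 had 27.6%, 19.9% and 32.8% at Dazl, SSEA1 positive and negative cells 69.0% and 70.4%, and MEF 4 and 5 47.0% and 63.3%. XO and male iPSC overlapped at Dazl, with means of 27.5 ± 13.8% (SD, n = 4) and 26.8 ± 6.52% (SD, n = 3), both below SSEA1 cells and MEF. Beside the start of Tram1l1, a relative of a protein translocation factor (chromosome 3, 124024001), XaXa 7 and 8 had 20.9% and 7.27%, XO 3, 5, 6 and 9 had 42.8%, 33.0%, 37.1% and 27.0%, and male iPSC 1, 2 and 4 had 47.0%, 33.9% and 49.2%. On chromosome 15 at 5058001, XO 3, 5, 6 and 9 had 39.5%, 28.6%, 35.4% and 26.1%, all below male iPSC 1, 2 and 4 with 42.9%, 46.5% and 50.3%. On chromosome 9 at 114921001, XO 6 had 50.4%, XO 3, 5 and 9 had 22.7%, 21.6% and 14.1%, and male iPSC 1, 2 and 4 had 12.1%, 27.1% and 42.7%. There XO 6 was above the other XO libraries, as in the Nnat tiles, but XO 3, 5 and 9 lay within the male iPSC range. The other 5, on chromosome 2 at 72331001, chromosome 4 at 116691001 and 138699001 and chromosome 9 at 105456001 and 103115001, had group means of 24.1 to 43.1% in XO and 30.1 to 48.8% in male iPSC. In the chromosome 2 tile every XO library (16.5 to 30.9%) was below every male iPSC library (33.8 to 40.4%), and in the rest of these tiles the groups overlapped.

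The window tiles held more CpG positions than the other chosen tiles, and more of their CpGs were intermediate one by one. The 9 window tiles had a median of 26 CpG positions, against 13 in the 305 other chosen tiles, 13 in the tiles that stayed and 17 in all covered tiles. CpG by CpG, with 10 or more reads pooled in male iPSC and at least 5 such CpGs per tile, the median share of a tile's CpGs at 30 to 70% was 87.0% in the window tiles, 54.5% in 245 other chosen tiles, 60% in 1424 tiles that stayed and 5.56% in all covered tiles. The same median in MEF was 79.2%, 50%, 50% and 0% (8, 176, 979 and 35427 tiles). Male iPSC and MEF levels, with the same limits, chose the tiles, so the gap to all covered tiles is in part set by the rule. Between the window tiles and the other chosen tiles, median SDs between CpGs in male iPSC were 15.3 and 20.3 points. Their median pooled male iPSC levels were 46.4% and 37.75%, so the window tiles lay nearer the middle of the limits. The part of this in the shares was not tested. A placed RefSeq transcription start lay within 1 kb of 5 of 9 window tiles, of 28 of 292 other chosen tiles (9.59%), of 5.76% of the tiles that stayed and of 23.0% of all covered tiles. The tiles outside windows near a start included those of Il6ra, a subunit of the interleukin 6 receptor, Park7, a protein of the oxidative stress response, and Nrtn, a ligand of the RET pathway, picked here for their known roles after their values were seen. Their pooled levels were 9.61%, 4.73% and 14.2% in XaXa, 33.0%, 15.1% and 43.6% in XO, and 30.7%, 36.1% and 44.0% in male iPSC.

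The chosen tiles were scattered along the genome. Another chosen tile lay within 10 kb of 8 of the 314 (2.55%), against 259 of the 1890 tiles that stayed (13.7%). The tiles that stayed are more numerous, and the part of their number in this was not tested. The 8 were the Nnat pair, the Zrsr1 pair, a pair on chromosome 11 at 113988001 and 113989001, and a pair on chromosome 10 at 80291001 and 80298001. In the adjacent pair at 113988001, XO 3, 5 and 6 had 45.2%, 45.3% and 45.2%, and in its neighbour 40.4%, 42.4% and 44.1%, without the gap between XO libraries seen at Nnat and Zrsr1. Within 100 kb the count was 20 of 314, against 798 of 1890. By chromosome, chosen tiles were 0.28% of covered tiles on chromosome 1 (10 tiles) and 0.834% on chromosome 11 (37 tiles), the lowest and highest shares, with 0.707% on chromosome 2 (31 tiles).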

How the data were processed

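Each deposited table lists the CpGs read in 1 of 13 RRBS libraries. Per the file headers, its columns hold the count of all reads, the count of methylated reads and a methylated fraction. The authors deposited raw counts. Their deposited fraction was checked to be methylated over all reads and left aside. The aligner was BSMAP and the build mm9, per the submitters' processing notes; for the version, trimming and any filter, none is given in the sources used here. Reads start at cut sites, so PCR copies cannot be told from separate molecules.

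Counts were summed in 1000 bp tiles cut from position 1 (539151 autosomal tiles with a CpG, from 3340630 CpG positions), so 1 read adds to the count at each CpG it covers. Intervals are 95% Wilson intervals, the level allowed at 0 is 3 counts of the total, and both cover counting error only and are too narrow for that reason. Group means weight libraries equally; pooled levels do not. Nothing in the labels says that libraries were separate cultures, so p-values measure only the spread between libraries, which may be technical.

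XO and male iPSC were compared with limma 3.58.1 (R 4.3.3) on log2((methylated + 1)/(unmethylated + 1)). Group means and spreads were computed in closed form and passed to limma's eBayes with trend. The 58008 tiles tested had 10 or more reads in at least 3 XO and 2 male iPSC libraries. XaXa and MEF were in the fit, and Benjamini-Hochberg adjustment ran over all tiles. A library under 10 reads in a tile was left out there. The script was tested on simulated data. Python 3.11.15 with numpy 2.4.6 and pandas 2.3.3 did the rest.

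Tiles named are, per window, the chosen one with the most reads in its least covered library, the 10 deepest such tiles outside windows, called tiles and the 3 on each side of the 15% limit; others named were chosen after their values were seen. The 27 imprinted windows were placed on mm9 from general knowledge. The members and lists were chosen with earlier results of these data known. No mm9 genome or annotation was used: 12472 of 32851 RefSeq promoters (GRCm38.p6), of 10914 genes, were placed by at least 5 matching CpGs, none disagreeing. Alternatives were other rule limits, minimum reads, pseudocounts, a read-weighted quasi-binomial model, a cap of 200 reads per CpG, and each library left out.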

Additional observations from a re-analysis of the deposited data

Results flagged for a closer look

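In groups of 4 libraries, 22 sets of values were looked at for a library far from the others, and 2 were found. Chance gives about 1 in 20 for separate sets, but these sets overlap, so that rate cannot be set against the count. The mean level over the 9 window tiles was 42.7% in XO 6, with the other XO libraries between 11.5 and 16.6%. The first Nnat tile (chromosome 2, 157386001), itself 1 of those 9, had 49.2% in XO 6, with the other XO libraries at 5.65% or less. XO 6 was also the XO library whose X reads were nearest to male iPSC (1.02 times the male value, against 1.21 to 1.38 in the others). The part of X dosage in this was not tested.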

How the results depend on the processing

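No paired analysis was possible because XO and male iPSC libraries share no replicate number. Of all tiles, limma called 0 lower in XO; this became 17 with the quasi-binomial model, 8 with a pseudocount of 5, 1 and 7 with 5 and 20 reads per library, and 3 with XO 6 as the only XO library, assumed to vary like the other groups. Tiles called higher, 0, became 120 with the quasi-binomial model, 5 with a pseudocount of 5, 5 with 20 reads and 2 with XO and male iPSC alone in the fit. Chosen tiles called lower, 0, became 1 with the quasi-binomial model, 2 with a pseudocount of 5, 1 with 20 reads and 1 with XO 6 alone. Leaving out 1 library at a time gave 0 to 12 tiles lower, 0 to 17 higher and 0 to 3 chosen tiles lower, with the most without XO 6 (12 and 3) and without male iPSC 4 (17). The mean difference over the chosen tiles stayed between -7.04 and -1.91 points.

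The 314 tiles became 198 with levels averaged over libraries (145 shared with the 314), 674 at 25 to 75%, 127 at 35 to 65%, 113 and 671 with limits of 10 and 20% in XaXa, 774 and 71 with 5 and 20 CpG positions, 90 with 200 reads per group and 120 with 15% or less in each XaXa library, a choice made after seeing the data. Leaving out 1 library gave 156 (without XaXa 8, 121 shared) to 373 tiles, and 208 without MEF 5. Tiles with another within 100 kb were 20, against 8 within 10 kb. The cause was not tested.

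Of 339 values of 17 named tiles under alternatives, 307 kept their direction and side of the threshold, 12 passed it, among them Mcts2, and 20 changed sign, all of them differences of XO minus male iPSC that did not pass the test. With the quasi-binomial model they were 6.10 points at Gm24463, 18.3 at Meg3, and 1.24 and 6.56 on chromosome 9 at 103115001 and 114921001. With XO 6 alone they were 8.33 at Gm24463, 18.95 at Meg3, 14.1 at the first Nnat tile, and 2.28 and 23.1 at those chromosome 9 tiles. Without 1 library, the difference ran from -24.68 to 7.07 at Meg3 (2.26 without XO 5), -3.93 to 7.08 at Dazl (also -2.75, -0.181 and -0.164), -7.81 to 7.61 at 114921001 (also 1.41, 1.76 and 4.27) and -8.17 to 0.212 at 105456001. XO 9 had a median of 23 reads per chosen tile, and the widest Wilson intervals over the window tiles were 33.4 points in male iPSC 2 and 32.9 in XO 9.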
